A study of Homo sapiens with 3 samples.

Results

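Histone genes were followed in LNCaP-abl cells, a prostate cancer line derived from LNCaP that grows without androgen, after silencing of the transcription factor E2F1. The members are every gene whose symbol starts with HIST1, HIST2, HIST3 or HIST4, plus 10 named variant genes, 69 of the 22613 genes listed. By symbol they fall into 5 linker H1, 15 H2A, 18 H2B, 10 H3 and 11 H4 genes, with the 10 variants kept apart. Cells grew in medium without phenol red that held charcoal-stripped serum, and RNA was taken 72 h after lipid transfection with either a pool of siRNAs against E2F1 (siE2F1, 1 library) or control siRNA (2 libraries, numbered 0 and 1). Both groups thus share the line, the serum and the transfection. Whether the controls were separate cultures is not labelled. The p-values rest only on differences between the 2 controls, for the gene and pooled over genes, which may be technical.

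Nucleosomes wrap DNA around pairs of the core histones H2A, H2B, H3 and H4, and H1 binds the linker DNA between them. Replication-dependent histone genes lie in clusters, mainly on chromosome 6, and are transcribed in S phase to supply new chromatin. Their mRNAs usually end in a stem-loop bound by SLBP and carry no poly(A) tail. Variant genes such as H2AFZ and H3F3B are expressed through the cell cycle from ordinary polyadenylated mRNAs, and H2AFX can give both kinds. The library kit named in the labels (TruSeq RNA v2) enriches polyadenylated RNA. Values of replication-dependent genes thus describe mainly the polyadenylated share of their mRNA, and the share that was captured was not measured.

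The stem-loops are shown first because an mRNA cut there carries no poly(A) tail. In GENCODE release 29 transcripts (GRCh38), a stem of 6 base pairs around a loop of 4 bases was found in 24 of the 59 replication-dependent members and in H2AFX. For the others, the annotated transcripts held no such repeat, which says nothing of their mRNA beyond the annotated ends. Capitals mark the stem, which was the same in the 17 H2A, H2B and H3 genes and another one in H2AFX and the 7 H4 genes.

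HIST2H2BE: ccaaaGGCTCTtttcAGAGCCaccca
HIST1H2BE: ccaaaGGCTCTtttcAGAGCCactca
HIST1H3H: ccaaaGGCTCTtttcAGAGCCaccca
HIST1H4E: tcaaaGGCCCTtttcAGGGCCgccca
H2AFX: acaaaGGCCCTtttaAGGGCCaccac

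In 17 of the 24 replication-dependent members an annotated transcript ran on for more than 100 bases past the stem-loop. That tail was 1729 bases in HIST2H2BE, 1022 in HIST1H4E, 769 in HIST1H3H, 430 in HIST1H2BE and 1044 in H2AFX. Levels are given as FPKM, fragments per kilobase of transcript scaled to the mapped fragments of the library, and sets of 3 values follow the order control 0, control 1, siE2F1. Differences are log2 fold changes on log2(FPKM + 1), a scale that shrinks the changes of low genes. Among replication-dependent members of at least 1 FPKM, the 15 with such a tail had a median mean level of 15.1 FPKM, the 6 with a stem-loop near the end 8.57 FPKM and the 22 with none found 5.28 FPKM. In the same order, these sets had median log2 fold changes of 0.19, 0.20 and 0.17.

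The silenced gene itself, E2F1, measured 10.6 FPKM in each control and 1.68 FPKM in siE2F1, a log2 fold change of -2.12 (limma over all genes tested, adjusted p = 0.0311). That call did not hold at a pseudocount of 0.1 (adjusted p = 0.0601) or without a minimum level (adjusted p = 0.159). Luminal prostate markers, 7 of 8 at 1 FPKM or more, summed to 834.1, 853.5 and 914.9 FPKM in control 0, control 1 and siE2F1. Of the basal, fibroblast, leukocyte and endothelial markers, 1 each was listed. The basal KRT14 was at 0 in each library, and the sums of the other lists ran from 0.423 to 1.15 FPKM. Depth is unknown, since no read counts were given. Sorted values were nearly the same in the 3 libraries (median log2(FPKM + 1) 3.33 in each), so a change shared by most genes could not be seen. In bulk RNA, fewer cells in S phase and less histone mRNA per cell cannot be told apart.

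After E2F1 silencing histone genes lay on both sides of the controls, and their position varied by class. Of the 69 members, 52 had a mean of at least 1 FPKM and were tested. Their median absolute log2 fold change was 0.33, beside 0.18 over all 14401 genes tested, while the controls differed from each other by a median of 0.08 in both sets. Above both controls lay 11 of 13 H2A, 4 of 5 H3, 5 of 8 H4 and 9 of 15 H2B genes, beside 43.7% of all genes tested. Below both lay 1 H2A, 1 H4, 6 H2B and 2 of 2 H1 genes, beside 39.7% of all genes tested. Variants lay mostly below (6 of 9).

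None of the 52 passed limma over all genes tested (0.417% of which passed), although 26 had an unadjusted p under 0.05 (50%, beside 28.4% of all genes tested). In a fit without small RNA genes, 7 members rose (13.5%, beside 4.17% of all genes in that fit) and 8 fell (15.4%, beside 6.36%). These 15 were HIST1H4E, HIST2H2BE, HIST1H3E, HIST1H3H, HIST2H2BA, HIST1H3D and HIST1H2AK on the higher side, and HIST1H2BK, HIST1H2BE, H2AFX, HIST1H2BO, H1FX, HIST1H1E, HIST1H2BJ and H2AFV on the lower. In the other fits with a mean-variance trend their adjusted p-values ran from 0.0792 to 0.199, and none passed without the trend. Adjusted p-values below come from limma without small RNA genes unless the text says otherwise. By position, 31 of the 52 lay above both controls (59.6%, beside 43.7% of all genes tested) and 16 below both (30.8%, beside 39.7%). By size, 1 member, HIST1H2BK, was at least 2-fold below both controls (0.833% of all genes) and none was at least 2-fold above both (0.743%). Against control 1 alone 3 were 2-fold lower, and against control 0 alone 1 was 2-fold higher. With 1 library against 2, an exact permutation test of a single gene cannot go below p = 0.333.

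**Figure D1:**
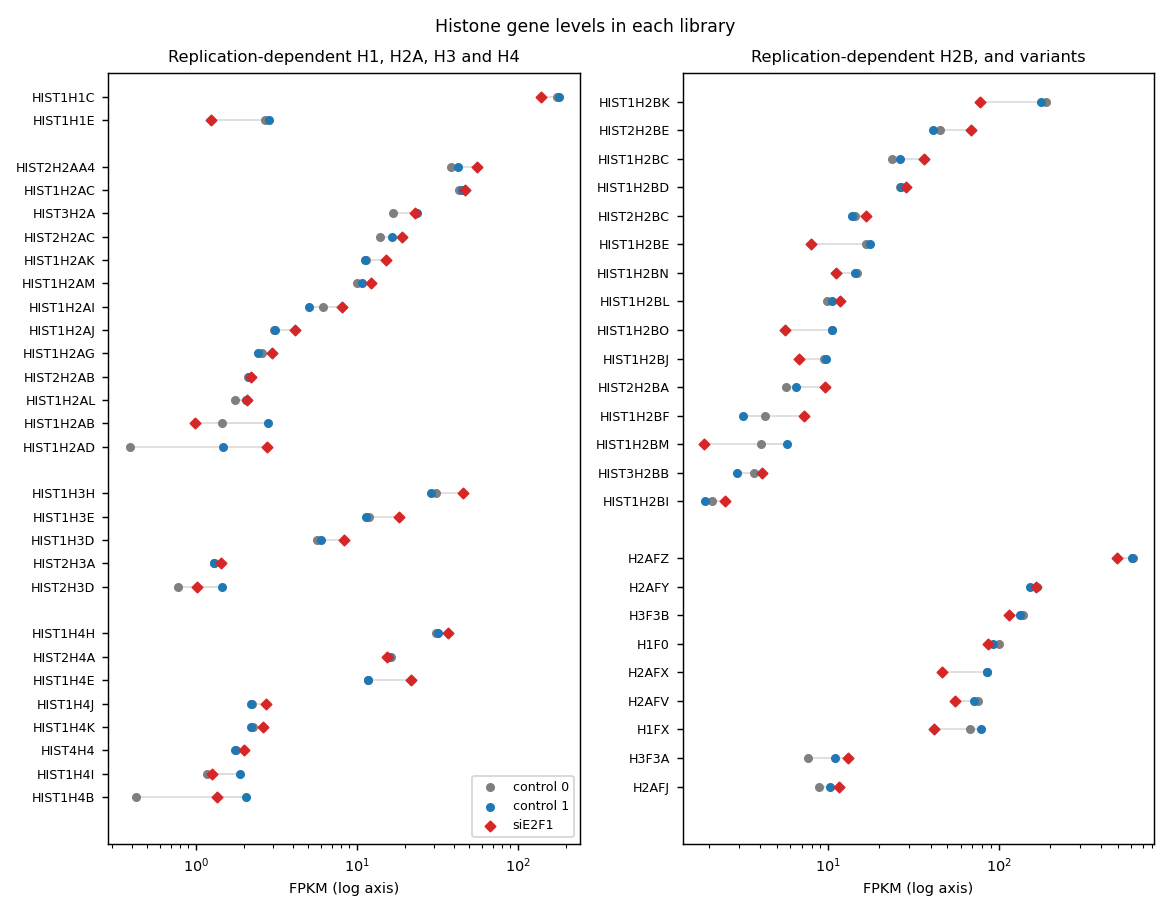
FPKM on a log axis in control 0 (grey circle), control 1 (blue circle) and siE2F1 (red diamond) for the 52 measured histone genes, ordered by level within H1, H2A, H3 and H4 (left, top to bottom) and within H2B and variants (right). HIST1H2BK stands at 78 FPKM in siE2F1 against 190.3 and 177.8, and HIST1H4E at 21.8 against 11.8 and 11.7.

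**Figure D2:**
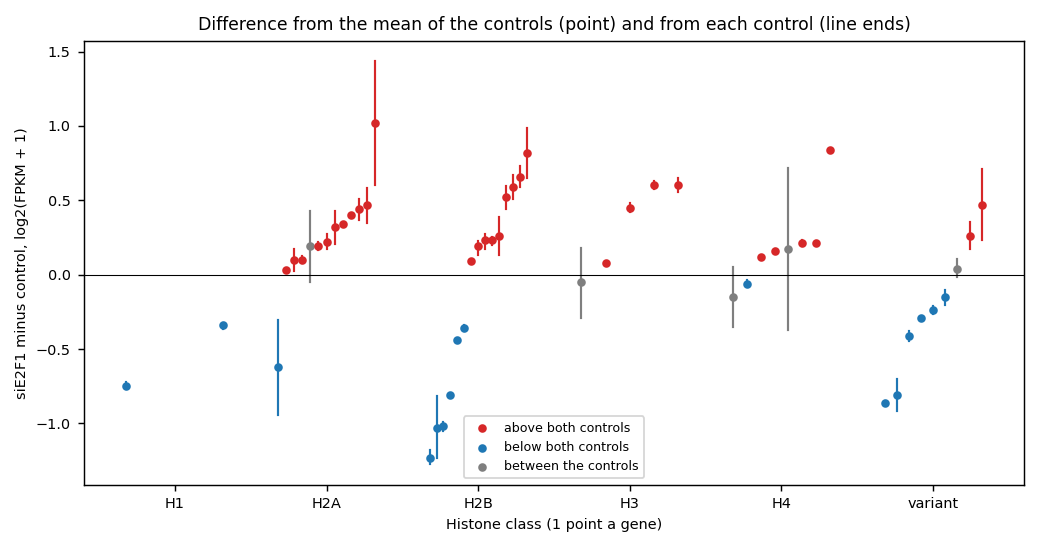
Difference of siE2F1 from the controls on log2(FPKM + 1) for each tested histone gene, by class. Points are differences from the control mean and line ends differences from each control. H2A, H3 and H4 genes lie mostly above 0, H2B genes on both sides, and 6 of 9 variants below both controls.

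Replication-dependent genes as one set were more often higher than lower. Of 43 tested, 29 were above both controls (67.4%), 10 below (23.3%) and 4 between them, with a median log2 fold change of 0.19. Of the 27 with at most 10% of their sequence in common with another gene, 17 lay above and 7 below, and of the 25 at 5 FPKM or more also 17 and 7. By location, 20 of 31 genes with HIST1 symbols (the chromosome 6 clusters) lay above and 9 below, and 7 of 9 with HIST2 symbols above and 1 below. Of 6 genes known to make polyadenylated mRNA as well, 4 lay above and 2 below, with a median log2 fold change of 0.10. The 59 genes of this set were taken by symbol and include the annotated pseudogenes HIST1H2APS1, HIST2H2BA and HIST2H2BC. Summed over all 59 genes, FPKM was 832.4, 843.0 and 797.9 in control 0, control 1 and siE2F1. The sum in siE2F1 was thus below both controls while most single genes were above them. That direction rests on abundant genes: without HIST1H1C the sum was 657.4, 663.5 and 658.5 FPKM, and without HIST1H2BK 642.1, 665.2 and 719.9 FPKM, above both controls. These sums were chosen after the values were seen.

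**Figure D3:**
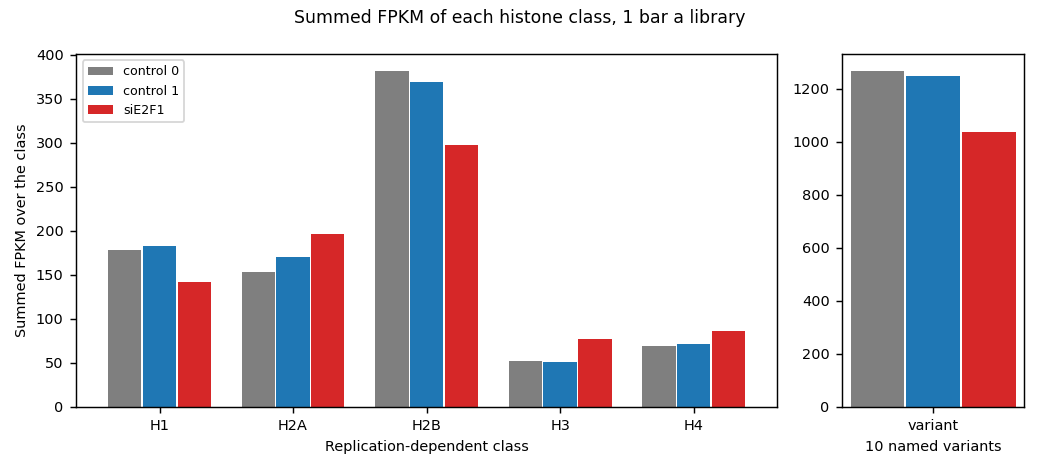
Summed FPKM of each histone class in control 0 (grey), control 1 (blue) and siE2F1 (red), 1 bar a library, for the replication-dependent classes (left) and the 10 variants (right, own axis). H2A, H3 and H4 sums are highest in siE2F1 and the H1, H2B and variant sums lowest there.

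Linker histones are the H1 genes, and 2 of 5 were measured. HIST1H1C, the replication-dependent gene with the highest mean over the 3 libraries and one known to make polyadenylated mRNA as well, was at 175.0 FPKM in control 0, 179.6 in control 1 and 139.4 in siE2F1. Its log2 fold change was -0.34 (SE 0.0662, adjusted p = 0.0604), so it lay below both controls without passing. HIST1H1E was far lower, at 2.71, 2.84 and 1.25 FPKM, and fell by 0.75 on the log2 scale (SE 0.0791, adjusted p = 0.0365). HIST1H1C made up 98.2% of the H1 sum in the controls, and that sum read 178.2, 183.0 and 141.4 FPKM. The other 3, HIST1H1B, HIST1H1D and the testis gene HIST1H1T, had means of 0.124 to 0.302 FPKM.

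H2A genes encode the core histone that dimerizes with H2B. Of 13 measured, 11 were above both controls, 1 below and 1 between, with a median log2 fold change of 0.22, and 1 passed. HIST1H2AK rose from 11.4 and 11.2 FPKM to 15.2 FPKM (log2 fold change 0.40, SE 0.0597, adjusted p = 0.0496). The H2A gene with the highest mean, HIST2H2AA4, read 38.7, 42.8 and 55.5 FPKM (0.44, SE 0.0962, adjusted p = 0.0617). HIST1H2AC was at 43.4, 44.9 and 47.4 FPKM (0.10, adjusted p = 0.409). Its groups do not overlap, but the gap to control 1 is small.

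HIST3H2A shows how the controls limit some calls: it was at 16.8 FPKM in control 0, 23.7 in control 1 and 22.9 in siE2F1. HIST1H2AD had the highest log2 fold change of any member (1.02, and 1.70 with a pseudocount of 0.1), on levels of 0.388, 1.48 and 2.76 FPKM. Its control mean was 0.933 FPKM, so it reached the 1 FPKM minimum only through siE2F1 and had to lie high there, the 1 tested member of which this is true. Its controls differ by 0.84 log2 units, and its adjusted p was 0.146. The H2A gene below both controls was HIST1H2AB, at 1.46, 2.82 and 0.99 FPKM (-0.62, and -0.97 with a pseudocount of 0.1, adjusted p = 0.214). HIST2H2AC, HIST1H2AM, HIST1H2AI, HIST1H2AJ, HIST1H2AG, HIST2H2AB and HIST1H2AL were above both controls with log2 fold changes of 0.03 to 0.47, and none passed.

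H2B genes lay on both sides of the controls, and include the member with the most negative log2 fold change. HIST1H2BK, an H2B gene known to make polyadenylated mRNA, was at 190.3 FPKM in control 0, 177.8 in control 1 and 78 in siE2F1. It fell 2.34-fold on the log2(FPKM + 1) scale (log2 fold change -1.23, SE 0.0811, adjusted p = 0.0229; 0.111 over all genes tested). HIST1H2BE was at 16.8, 17.6 and 7.97 FPKM and fell 2.03-fold on that scale (SE 0.0668, adjusted p = 0.0272). HIST1H2BO was at 10.6, 10.5 and 5.6 FPKM and fell by 0.81 on the log2 scale (adjusted p = 0.0296). HIST1H2BJ fell from 9.5 and 9.68 FPKM to 6.79 FPKM (-0.44, adjusted p = 0.0441). For each of these 4 genes the controls agree to within 0.10 log2 units and siE2F1 lies well under them.

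HIST1H2BM was at 4.06, 5.76 and 1.87 FPKM, a log2 fold change of -1.03, but its controls lie 0.42 log2 units apart and its adjusted p was 0.0511. HIST1H2BN was at 14.7, 14.3 and 11.1 FPKM (-0.36, adjusted p = 0.0599). Both were below both controls without passing.

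The 9 other H2B genes were above both controls. HIST2H2BE, the second most abundant, was at 45.2 FPKM in control 0, 41 in control 1 and 68.6 in siE2F1, and rose by 0.66 log2 units (SE 0.0935, adjusted p = 0.0376). HIST2H2BA, annotated as a transcribed pseudogene, rose from 5.66 and 6.48 FPKM to 9.62 FPKM (0.59, adjusted p = 0.0463). HIST1H2BC was at 23.7, 26.5 and 36.3 FPKM (0.52, adjusted p = 0.0507) and HIST1H2BF at 4.26, 3.15 and 7.24 FPKM (0.82, adjusted p = 0.0564). In limma without small RNA genes these last genes miss the threshold narrowly. In limma over all genes tested HIST1H2BC and HIST1H2BF had adjusted p-values of 0.128 and 0.144. HIST1H2BD, HIST1H2BI, HIST1H2BL, HIST2H2BC and HIST3H2BB had log2 fold changes of 0.09 to 0.26 and did not pass. HIST2H2BC, like HIST2H2BA, is annotated as a transcribed pseudogene.

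One gene sets the direction of the H2B sum. Over all 18 genes it read 381.6, 369.1 and 297.4 FPKM, the last being 0.79 of the control mean. HIST1H2BK made up 49% of it in the controls. Without that gene the sum was 191.3, 191.3 and 219.4 FPKM, 1.15 of the control mean.

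H3 genes carry many of the best known histone marks. Of 5 measured, 4 were above both controls and 3 rose. HIST1H3H read 30.9, 28.9 and 45.9 FPKM (log2 fold change 0.60, SE 0.0777, adjusted p = 0.0374). HIST1H3E was at 11.9, 11.4 and 18.2 FPKM (0.60, SE 0.068, adjusted p = 0.0365) and HIST1H3D at 5.69, 5.97 and 8.34 FPKM (0.45, adjusted p = 0.0465). In each of the 3 the controls lie close together and siE2F1 stands clear of them. HIST2H3A was at 1.3, 1.3 and 1.44 FPKM (0.08, and 0.14 with a pseudocount of 0.1, adjusted p = 0.615), and HIST2H3D lay between its controls. The H3 sum read 51.8, 50.4 and 76.6 FPKM, and siE2F1 stood at 149.9% of the control mean. Without HIST1H3H that ratio was 1.45.

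Among 8 H4 genes measured, 5 lay above both controls and 1 below, and 1 passed. HIST1H4E, which has a long tail after its stem-loop, rose 1.79-fold on the log2(FPKM + 1) scale, from 11.8 and 11.7 FPKM to 21.8 FPKM (SE 0.0591 on the log2 scale, adjusted p = 0.0275, and 0.0818 to 0.188 in the other fits with a trend). HIST1H4H, the most abundant, was at 31.2, 32.2 and 36.9 FPKM (0.21, adjusted p = 0.142). HIST2H4A was at 16.4, 15.9 and 15.5 FPKM (-0.06, adjusted p = 0.645), below both controls by less than they differ from one another. HIST1H4J, HIST1H4K and HIST4H4 were above both controls at 1.76 to 2.73 FPKM, and HIST1H4B (0.426, 2.04 and 1.35 FPKM) and HIST1H4I lay between controls that were far apart. The H4 sum was 68.4, 70.8 and 85.9 FPKM.

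A further 17 members had a mean under 1 FPKM and were not tested: 3 H1, 2 H2A, 3 H2B, 5 H3 and 3 H4 genes and the variant H2AFY2. Their means ran from 0 to 0.883 FPKM, and HIST1H2BG and HIST1H4A were listed at 0 in each library. HIST1H4C was just under the threshold (mean 0.883 FPKM) and HIST2H3D just over it (1.08 FPKM). The variant H2AFY2, a second macroH2A gene, was at 0.246, 0.293 and 0.289 FPKM.

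Variant histones replace core or linker histones outside replication. H2AFX, whose protein is phosphorylated at DNA breaks, had the most negative log2 fold change among them: it fell from 85.3 and 86.1 FPKM to 46.8 FPKM (log2 fold change -0.86, SE 0.0615, adjusted p = 0.0272). H1FX, a linker variant, fell from 68.3 and 79.4 FPKM to 41.6 FPKM (-0.81, SE 0.129, adjusted p = 0.0389). H2AFV, a second gene for H2A.Z, fell from 75.7 and 72.2 FPKM to 55.3 FPKM (-0.41, SE 0.0708, adjusted p = 0.0498). All 3 lie clear of their controls.

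H2AFZ, the main H2A.Z gene and the most abundant member, was at 614.9, 607.3 and 498.3 FPKM (-0.29, SE 0.0681, adjusted p = 0.0734). H3F3B, which encodes H3.3, was at 139.1, 134.4 and 115.8 FPKM (-0.24, adjusted p = 0.114), and H1F0, a linker histone of resting cells, at 100.2, 93.4 and 86.9 FPKM (-0.15, adjusted p = 0.277). These 3 were below both controls without passing. H2AFY, which encodes macroH2A, lay between the controls at 167.4, 153.8 and 165.3 FPKM, and H2AFJ was above both at 8.86, 10.2 and 11.6 FPKM (0.26, adjusted p = 0.18). The variant sum read 1267.7, 1248.0 and 1035.1 FPKM.

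H3F3A, the other H3.3 gene, needs a separate reading. It was listed at only 7.63, 11 and 13.1 FPKM (0.47, adjusted p = 0.212), with controls 0.48 log2 units apart. Its processed pseudogene H3F3AP4 was listed at 655.0, 723.6 and 564.6 FPKM (-0.29, adjusted p = 0.122), and all 362 stretches of 50 bases in the annotated H3F3AP4 transcript also occur in H3F3A transcripts. Reads from the 2 cannot be told apart there, so neither value describes H3F3A alone.

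Shared sequence also bears on the other members. In 13 of the 69, more than 50% of the 50-base stretches occur in a transcript of another gene, among them HIST2H2AA4 (97.1%, mainly HIST2H2AA3), HIST2H4A (97.5%, HIST2H4B), HIST1H3D (100%, AL031777.3), HIST1H4K (100%, HIST1H4J) and HIST1H2BK (74.1%, mainly H2BFS). HIST2H2BA is another (73.6%, mainly HIST2H2BF). HIST1H2AD shares 98% with AL031777.3, as HIST1H3D does, and these 2 members have the same promoter window. HIST1H2AM shares 86.3% with an H3 gene, HIST1H3J. Values of these 13 genes can hold reads of the genes that share their sequence, whether copies or not. HIST1H2BE (4.6%), HIST1H2BO (13.6%) and HIST1H2BJ (4.6%) share short stretches with other genes, HIST1H2BK among them, and HIST1H2BM none with any gene. HIST1H4E, HIST1H3H, H1FX and HIST1H1E share none, H2AFX 0.3% and HIST2H2BE 8.1%.

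H2A and H2B genes of the clusters often stand head to head, and their promoters could be compared through RefSeq starts (GRCh38.p14), a build other than the hg19 named for the files. Promoter windows, 250 bases before to 50 after the start, were matched for 61 of the 69 members. There were 9 measured H2A/H2B pairs with divergent starts 194 to 248 bases apart. In 4 of the 9 the log2 fold changes had opposite signs, each time positive for H2A and negative for H2B: HIST1H2AJ at 0.34 beside HIST1H2BM at -1.03, HIST1H2AM at 0.22 beside HIST1H2BO at -0.81, HIST1H2AG at 0.19 beside HIST1H2BJ at -0.44, and HIST1H2AK at 0.40 beside HIST1H2BN at -0.36. All 9 H2A genes had a positive log2 fold change, and 5 of the 9 H2B genes. Of these H2A genes, HIST3H2A lay between its controls and had a log2 fold change of -0.05 against control 1 alone, and HIST1H2AD was measured only through its level in siE2F1. In none of these 4 pairs did both genes pass, and the difference within a pair was not tested.

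**Figure D4:**
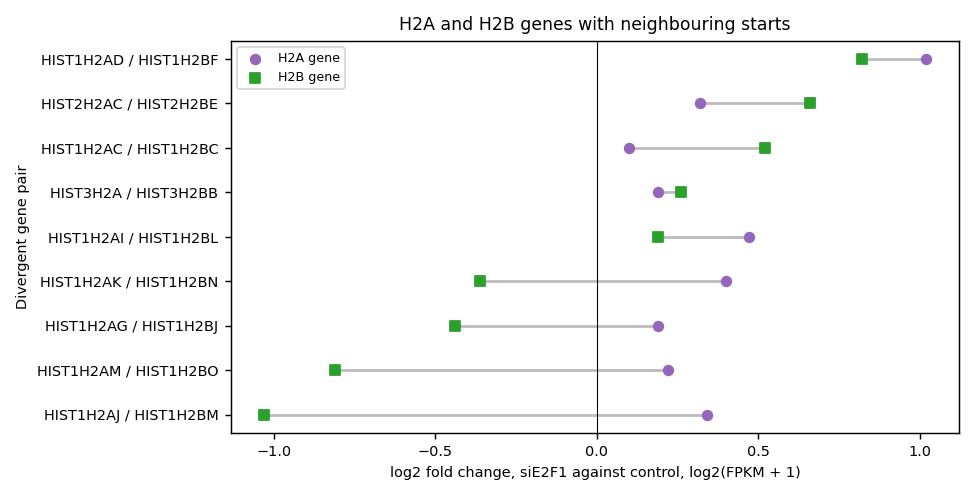
Log2 fold change (siE2F1 against control, log2(FPKM + 1)) of the H2A gene (purple circle) and the H2B gene (green square) in each of 9 divergent pairs. In the lowest 4 pairs the H2B gene lies below 0 and its H2A neighbour above 0.

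Promoters of 4 H2B genes below both controls are printed because they share a word with each other and, for HIST1H2BJ, HIST1H2BM and HIST1H2BO, with a divergent H2A neighbour above both controls. Each shows the 250 bases before the start on the gene's own strand. Capitals mark the octamer ATTTGCAT, a POU-factor site, and an E2F-type word, on either strand. HIST2H2BE, which rose and holds no E2F-type word, is shown beside them. The printed genes were thus chosen by word and position together. HIST1H2BL, above both controls with the E2F-type word, and HIST1H2BE and HIST1H2BN, below both without it, are not printed. HIST1H2BK lies at chr6:27146859-27147108 (minus strand), HIST1H2BJ at chr6:27132796-27133045 (minus), HIST1H2BM at chr6:27814772-27815021 (plus), HIST1H2BO at chr6:27893175-27893424 (plus) and HIST2H2BE at chr1:149886683-149886932 (minus), all in GRCh38.p14.

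HIST1H2BK: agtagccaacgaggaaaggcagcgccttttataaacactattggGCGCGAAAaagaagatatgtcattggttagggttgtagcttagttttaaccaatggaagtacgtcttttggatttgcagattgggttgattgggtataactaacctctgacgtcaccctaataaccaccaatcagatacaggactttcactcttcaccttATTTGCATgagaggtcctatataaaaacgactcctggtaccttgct
HIST1H2BJ: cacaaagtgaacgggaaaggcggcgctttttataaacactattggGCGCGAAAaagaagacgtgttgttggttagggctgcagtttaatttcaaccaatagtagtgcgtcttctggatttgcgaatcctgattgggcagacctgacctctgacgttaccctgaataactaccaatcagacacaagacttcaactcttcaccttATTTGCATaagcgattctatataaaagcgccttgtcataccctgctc
HIST1H2BM: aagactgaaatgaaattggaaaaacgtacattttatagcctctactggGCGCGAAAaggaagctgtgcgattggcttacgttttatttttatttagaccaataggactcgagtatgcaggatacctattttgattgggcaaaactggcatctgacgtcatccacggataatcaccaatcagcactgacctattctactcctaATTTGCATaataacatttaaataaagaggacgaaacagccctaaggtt
HIST1H2BO: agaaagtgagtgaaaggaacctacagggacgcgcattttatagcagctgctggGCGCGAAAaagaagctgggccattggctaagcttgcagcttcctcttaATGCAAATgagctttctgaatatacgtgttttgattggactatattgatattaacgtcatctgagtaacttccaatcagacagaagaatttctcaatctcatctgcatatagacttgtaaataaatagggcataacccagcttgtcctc
HIST2H2BE: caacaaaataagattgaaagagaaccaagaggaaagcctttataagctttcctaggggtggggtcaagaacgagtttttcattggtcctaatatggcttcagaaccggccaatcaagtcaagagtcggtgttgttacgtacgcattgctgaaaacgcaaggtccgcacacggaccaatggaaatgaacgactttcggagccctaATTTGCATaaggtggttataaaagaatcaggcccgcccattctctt

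The E2F-type words searched were TTTCCCGC, TTTCGCGC, TTTGCCGC and TTTGGCGC on both strands, and 3.3% of all 27305 RefSeq promoter windows held at least 1. In the members the share was 13 of 61 (21.3%). Of the measured H2B genes with a window, 4 of the 6 below both controls (HIST1H2BJ, HIST1H2BK, HIST1H2BM and HIST1H2BO) and 1 of the 7 above (HIST1H2BL) held it, in each case TTTCGCGC on the opposite strand, with its first base at -206 to -197 counted from the H2B start. In HIST1H2AG, HIST1H2AI, HIST1H2AJ, HIST1H2AL and HIST1H2AM the word stood at -50 on the gene's own strand. All 5 lay above both controls, but so did 11 of all 13 measured H2A genes, with the word or without it. Windows of a divergent pair overlap, so a pair counts the same word for both genes. Over all classes, 12 measured members held a word, 6 of them above and 4 below both controls. No window of the 9 variants with one held it, H2AFX among them. HIST1H2BE and HIST1H2BN lay below both controls and held none.

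The octamer was in 12 of 16 H2B and 9 of 13 H2A windows, beside 1.8% of all promoters, and in 5 of the 6 H2B genes below and 4 of the 7 above both controls. CCAAT was in 82% of member windows (35.7% of all promoters) but in only 1 of 9 H4 windows, and TATAAA in 62.3% (12% of all). Octamer and E2F-type words share no bases in the sequences printed. These matches describe the windows and show neither binding nor its absence.

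Genes that make histone mRNA or carry histones were read from a list of 45, of which 43 were measured. None passed limma over all genes tested, and the 14 with an unadjusted p under 0.05 (32.6%) are near the share of all genes (28.4%). Without small RNA genes 10 fell (23.3%, beside 6.36% of all genes in that fit) and none rose (beside 4.17%). By position 27 were below both controls (62.8%, beside 39.7% of all genes tested) and 11 above (25.6%, beside 43.7%). SLBP, which binds the stem-loop, fell from 73.1 FPKM in each control to 55.7 FPKM (log2 fold change -0.39, adjusted p = 0.0496). LSM11, of the U7 particle that helps to cleave histone mRNA, was at 1.99, 1.92 and 1.03 FPKM (-0.54, and -0.86 with a pseudocount of 0.1, adjusted p = 0.0498), and CPSF3, the nuclease that cuts it, at 24, 24.8 and 16.7 FPKM (-0.52, adjusted p = 0.0392). NPAT, the S-phase activator of these genes, was at 4.26, 4.55 and 4.02 FPKM (-0.11, adjusted p = 0.439).

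The chaperones that fell were ANP32E, which removes H2A.Z, both CAF-1 subunits CHAF1A and CHAF1B, the H3-H4 chaperones ASF1A and ASF1B, HJURP, which loads CENP-A, and SUPT16H of the FACT complex. ANP32E was at 75.8, 79.3 and 36.6 FPKM (-1.06, adjusted p = 0.0253) and CHAF1B at 16.5, 15.8 and 8.91 FPKM (-0.79, adjusted p = 0.0306). Both lie far under their controls. The other 5 were HJURP at 15.1, 15 and 8.83 FPKM, SUPT16H at 46.3, 44.8 and 29.7 FPKM, ASF1B at 15.9, 16.2 and 10.3 FPKM, CHAF1A at 19.7, 17.1 and 11.9 FPKM and ASF1A at 20, 21.2 and 14.9 FPKM, with log2 fold changes of -0.71 to -0.45. NASP, which carries soluble H3-H4, was at 46.2, 45.9 and 41.5 FPKM (-0.15, adjusted p = 0.24).

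**Figure D5:**
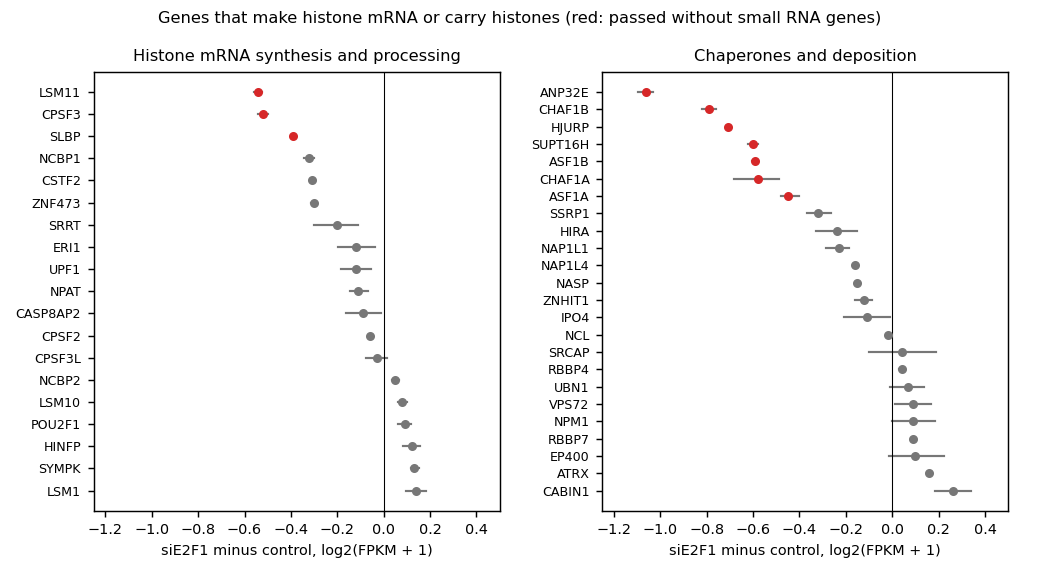
Difference of siE2F1 from the control mean (point) and from each control (line ends) on log2(FPKM + 1), for genes of histone mRNA synthesis and processing (left) and histone chaperones and deposition (right). Red points passed limma without small RNA genes: 3 of 19 on the left and 7 of 24 on the right, all lower in siE2F1.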

How the data were processed

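RNA sequencing of 3 libraries (2 control siRNA, 1 siE2F1) was used. TopHat2 2.0.4, Cufflinks 2.0.2 and the build hg19 are named per the submitters' processing notes, with no parameters, and which annotation was used is not stated. The authors deposited log2 FPKM values, 1 per gene and library, whose lowest value equals log2 of 0.1, so FPKM was computed as 2 to the deposited value minus 0.1. The sorted values of the libraries are nearly equal, as after quantile normalization, which no source names. Depth is unknown, and no count model was used.

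Genes whose mean reached 1 FPKM were tested on log2(FPKM + 1) in R 4.3.3 with limma 3.58.1 (mean-variance trend), two-sided, with Benjamini-Hochberg adjustment at 0.05 across all 14401 genes, and again across the 13928 left without small RNA genes (symbols beginning RNU, SCARNA, SNOR or MIR, other than host genes). The spread has 1 residual degree of freedom, from the controls, and siE2F1 is assumed to vary as they do. The step was run on simulated data whose variances followed the fitted values and whose siE2F1 library varied as the controls do. It thus cannot check that assumption or the calls made here.

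The members, gene lists and settings, including the fit without small RNA genes, were chosen with earlier results of these data known. By rule the genes named are E2F1, the measured members, all variants of the set, the members around the threshold, and members of the supply list that passed. Other genes named (NPAT, NASP, H3F3AP4, KRT14, the variants outside the set, and the members under 1 FPKM that are named) were chosen after their values were seen. All 69 members matched GENCODE release 29 and RefSeq names. Settings tried were a pseudocount of 0.1, no filter, a minimum of 5 FPKM, quantile normalization, a common median, no trend, and each control left out.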

Additional observations from a re-analysis of the deposited data

How the results depend on the processing

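All 52 measured members kept the sign of their log2 fold change with a pseudocount of 0.1, quantile normalization or a common median. Sorted values were already nearly equal, so both scalings had little to act on. Signs were also the same with no filter, no trend, no small RNA genes, and for the 34 members left at 5 FPKM or more. None of these choices enters a gene's log2 fold change, so they could not have changed it. Against control 1 alone the sign changed for 2 (HIST1H4B, HIST3H2A) and against control 0 alone for 3 (H2AFY, HIST1H4I, HIST2H3D). Without small RNA genes 7 histone genes passed as higher and 8 as lower, and 10 supply genes as lower, against 0 in each other fit with a test. Each gene's log2 fold change is the same without small RNA genes as over all genes tested. The prior degrees of freedom were 3.19 without small RNA genes. They ran from 1.1 to 1.81 in the fits that kept these genes. The cause was not tested. At 5 FPKM or more, where fewer genes were tested, 19 members were above both controls. A pseudocount of 0.1 put 4 members at least 2-fold below both controls, against 1. With 1 control left out, those counts were 1 to 3 below and 0 to 1 above, and members above the remaining control numbered 32 to 35 and those below it 17 to 20. E2F1 stayed lower but did not pass at a pseudocount of 0.1 (-2.59, adjusted p = 0.0601) or unfiltered (-2.12, adjusted p = 0.159). When a control or setting was changed, class sums over the control mean moved by less than the spread between the controls. With a control left out this could not be otherwise, since the control mean lies midway between the controls. The other settings barely enter a sum of FPKM. With control 0 or control 1 left out, no test has a residual degree of freedom. No paired analysis was possible because the siE2F1 group has 1 library, so fewer than 2 pairs exist.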

Other observations

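Of 10 variant histone genes outside the set described above, 4 were listed and 2 measured. CENPA, the H3 variant that marks centromeres, was at 13.4 FPKM in control 0, 15 in control 1 and 7.87 in siE2F1, and fell by 0.77 on the log2 scale (limma without small RNA genes, adjusted p = 0.0365; it did not pass over all genes tested). Its loading factor HJURP was at 15.1, 15 and 8.83 FPKM (-0.71, adjusted p = 0.0325). H3F3C, a retrocopy of H3F3B, was at 48.8, 47.2 and 42.5 FPKM (-0.17, adjusted p = 0.198), and 3.4% of the 50-base stretches of H3F3B occur in its transcript. H2AFB1 and H2AFB2 were under 1 FPKM in each library.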
